A study of Mus musculus with 6 samples.

Results

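Resting horizontal basal cells (HBCs) were taken here as 439 of the 1564 cells of the 3 uninjured libraries, and of 3679 cells in all 6 libraries. Barcodes that held 5000 fragments or more were taken as cells. For each cell 2 rates were computed, each the percentage of its cut sites (fragment ends, where the transposase cut open DNA) that fell in the bodies and 2000 bp upstream of a set of genes. The basal set held Krt5, Krt14, Krt15, Icam1, Col17a1, Itgb4 and Cav1, and the airway-like set held F2, Depp1, Adh7, Reg3g, Serpina3n, Aspa, Tff2, Bpifa1 and Adgrg1. A member had a basal rate at or above the pooled mean of 0.0331% and an airway-like rate below the pooled mean of 0.0193%. The members were thus chosen by the 2 measured rates, so the contrast of members with other uninjured cells is a description throughout and carries no test.

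Horizontal basal cells lie flat on the basement membrane of the olfactory epithelium, to which hemidesmosomes anchor them. They are reserve stem cells: they seldom divide in an intact epithelium and rebuild its neurons and supporting cells after severe injury. The transcription factor p63, the product of Trp63, holds them in the resting state, and its loss after injury is known to release them.

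The series holds 6 single-cell ATAC-seq libraries from adult mice that carried Krt5-CreER and a homozygous Rosa26 LSL-YFP reporter, in which Cre marks Krt5-expressing cells and their progeny with YFP. Cells of the dorsal epithelium that were YFP-positive and took up no propidium iodide were sorted, so other cell types that descend from marked cells can be present. The uninjured group had 3 control libraries. The injured group had 3 libraries from mice given methimazole, which destroys most of the epithelium above the basal layer, 24 h before collection. In both groups replicate 1 came from mice of 8 weeks, replicate 2 from mice of 6 weeks and replicate 3 from mice of 6 to 7 weeks. The labels call the libraries biological replicates, and do not give the number of animals behind each.

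The members numbered 146, 202 and 91 in uninjured replicates 1 to 3. Their share of cells was 38.8% (95% Wilson interval 34.0 to 43.8%), 31.8% (28.3 to 35.5%) and 16.5% (13.6 to 19.8%), or 29.0% ± 11.4 (SD, n = 3). Intervals cover counting error only. Uninjured replicate 3 had the lowest share, and 36.1% of its cells were instead high for both gene sets, against 31.4% and 21.9% in replicates 1 and 2. The same rule kept 572 injured cells, 387, 109 and 76 in replicates 1 to 3. The kept cells of a library held between 3780042 and 13557312 cut sites. Of 14 barcodes seen in more than 1 library, 3 belonged to members, and no barcode was shared between members of different uninjured libraries.

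**Figure D1:**
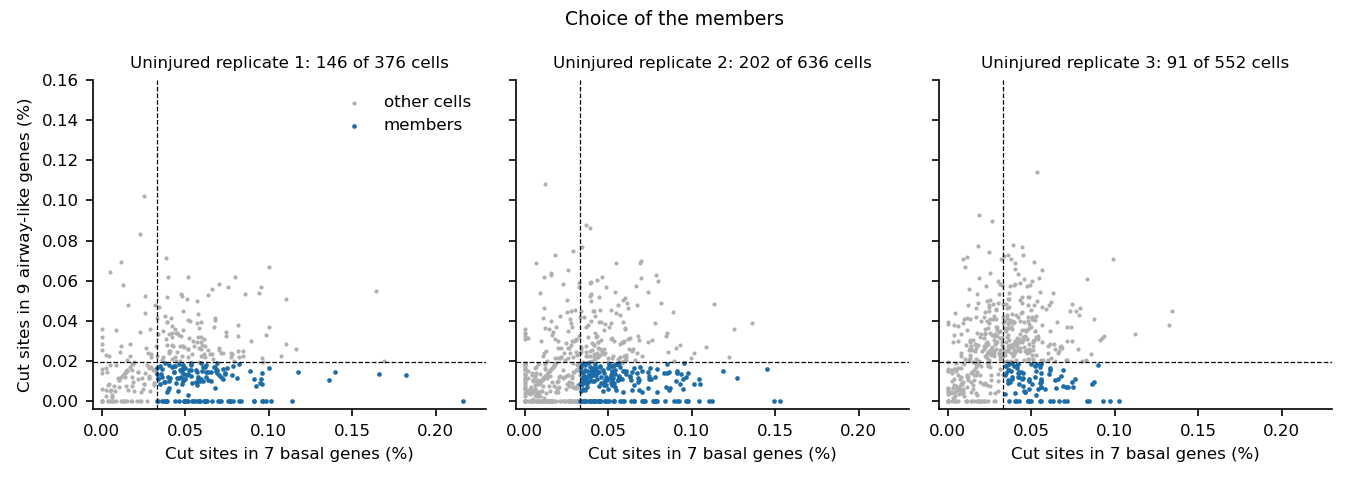
Each point is 1 uninjured cell, with the percentage of its cut sites in the basal gene set (x axis) and in the airway-like gene set (y axis), and dashed lines mark the pooled means. The members (blue) form the lower right part of a continuous cloud, with 146, 202 and 91 cells in replicates 1 to 3.

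The members formed one end of a continuous range and had no gap at either threshold. The 10 members just inside the basal threshold had rates of 0.0331 to 0.0339%, and the 10 airway-low cells just outside it had rates of 0.0318 to 0.0330%. At the airway-like threshold the 10 members just inside had 0.0186 to 0.0192%, and the 10 cells just outside had 0.0193 to 0.0196%. Membership rested on few cut sites per cell. A member had a median of 16 cut sites in the basal set (range 4 to 213) and a median of 2 in the airway-like set (range 0 to 68). One basal cut site fewer would have put 49 members outside, and 1 airway-like cut site more would have put out 86. Members held a median of 12697 fragments (range 5021 to 194579).

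The genes of the rule showed what the choice had done. Krt5, a keratin of basal cells, had 126, 100.1 and 87.3 cut sites per 1000000 (CPM) in the members of replicates 1 to 3, against 54.5, 40.0 and 40.6 in the other uninjured cells. Icam1, an adhesion molecule and surface marker of these cells, had 170, 142 and 162 CPM against 109, 62.6 and 82.1. Krt15 had the lowest single library ratio of the basal genes, 1.02 in replicate 3, but a ratio of 2.41 in replicate 2. It had 19.98, 18.4 and 14.3 CPM against 15.7, 7.63 and 14.0. Among the airway-like genes, Bpifa1, a secreted airway protein, had no cut site in the members of replicates 1 and 2 and 0.529 CPM in replicate 3.

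Markers that the rule did not use were also read, on the same CPM scale. Trp63 had 165, 184 and 197 CPM over its body in the members and 127, 124 and 142 in the other uninjured cells, so that the members were higher in every library. Itga6, the integrin partner of Itgb4 in hemidesmosomes, did not separate them, with 164, 169 and 167 CPM in members against 156, 141 and 180. The summed level of the 11 hemidesmosome and laminin genes was 1684 to 1747 CPM in members and 1326 to 1477 in other uninjured cells. Markers of neurons were lower in members: the 7 immature neuron genes summed to 129, 156 and 143 CPM, against 422, 285 and 329. Omp, the marker of mature olfactory neurons, had 1.61, 1.21 and 2.12 CPM in members and a mean of 12.5 ± 4.27 (SD, n = 3) in the others. The cells high for both gene sets, the class most like the members, shared most of these traits: their hemidesmosome sum was 1761, 1779 and 1723 CPM, above the members in every library, their immature neuron sum was 147, 134 and 134 CPM, and their mean for Trp63 was 164 CPM. The markers thus fit the basal label for both classes and do not set the members apart from the cells high for both sets.

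Markers of supporting cells gave a mixed picture. The 7 sustentacular genes summed to 163, 155 and 175 CPM in members and 147, 197 and 161 in the other uninjured cells. Cyp2g1, a defining enzyme of sustentacular cells, had 2.83, 1.49 and 2.65 CPM in members and 1.71, 16.1 and 9.23 in the others, so the members were higher in replicate 1 and lower in replicates 2 and 3. Of the same list, Cbr2 and Ermn were higher in members in every library, with ratios of 1.17 to 1.37 and 1.07 to 1.63. No marker list had a gene without a cut site in the members. The 6 ciliated cell genes gave 381 CPM in replicate 1 and 197 and 209 in replicates 2 and 3. That excess came from one cell: 755 of the 951 cut sites at Dnah5, a dynein of motile cilia, in the members of replicate 1 belonged to a single barcode.

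**Figure D2:**
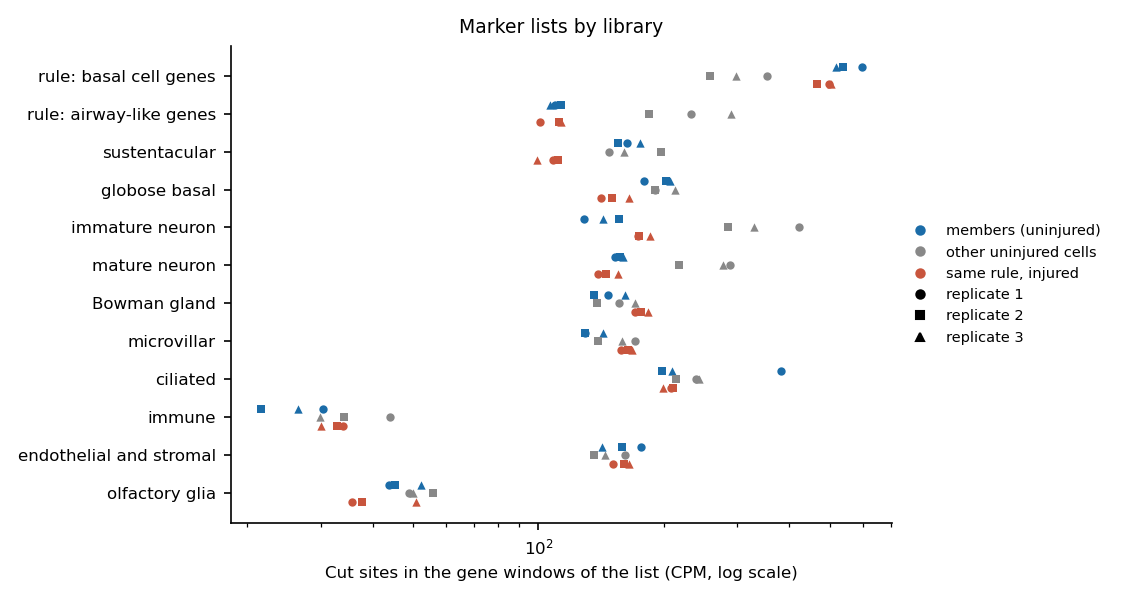
Each point is the summed cut sites in the gene windows of a marker list in 1 library, in CPM on a log axis, for the members (blue), the other uninjured cells (grey) and the injured cells kept by the same rule (red). Neuron lists lie lower in members than in other uninjured cells, the sustentacular list does not, and the ciliated list of replicate 1 stands at 381 CPM.

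Genes most open in members against the other uninjured cells were ranked among 10858 genes with at least 20 CPM in the members of every library. That minimum was set in the members alone, so a gene can pass it through the group where it is high, and no share or theme is read from the ranking. The 15 genes with the largest ratio, ranked by the lowest of the 3 library ratios, were Sult5a1, Pdzd3, Irgm1, Cd74, Igfbp2, Ccdc153, Ankrd65, Il6, Ifitm3, Gbp7, Mras, Slc47a1, Rab7b, Npl and Gbp3. Irgm1, an interferon-inducible GTPase, had 90.8, 82.7 and 85.4 CPM in members against 47.9, 39.9 and 37.8. Cd74, the invariant chain that guides MHC class II molecules, had 62.8, 43.4 and 42.3 CPM against 34.6, 22.1 and 18.4. Gbp7 and Gbp3, guanylate-binding proteins, stood just above the minimum in replicate 3, at 20.6 CPM each, and had library ratios of 1.70 to 2.19 and 1.65 to 2.09. Ifitm3, a membrane protein that restricts viruses, had ratios of 1.75 to 1.89. Il6, a cytokine gene, had ratios of 1.76 to 3.29, and Igfbp2, which binds insulin-like growth factors, 1.79 to 3.24. The cells high for both gene sets lay between, with a mean of 59.6 CPM for Irgm1 and 33.0 for Cd74.

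Immune cells carry the same genes, and their markers are given beside these values. The 7 immune genes, Ptprc among them, summed to 30.5, 21.6 and 26.5 CPM in members and 44.1, 34.2 and 29.9 in the other uninjured cells. Their part in the levels of Irgm1 and Cd74 was not tested. Most members had a cut site in the antigen presentation and interferon list. After each cell was thinned to 10000 cut sites, 95.2%, 94.1% and 95.6% of members in replicates 1 to 3 had a cut site in its 11 genes (97.9%, 97.0% and 98.9% before thinning). In the other uninjured cells the thinned shares were 86.5%, 80.6% and 86.1%. Such shares run high for other lists too: the ciliated cell genes had a cut site in 79.5%, 71.8% and 82.4% of thinned members. They therefore say little about spread over cells.

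The question the design allows a test of is how the resting cells differ from injured cells kept by the same rule. Cut sites were summed per library over the kept cells and the 3 uninjured sums were compared with the 3 injured sums, with differences written as uninjured minus injured on the log2 scale. CPM values from here on are scaled by TMM factors. The rule used no injury label, but it set the same threshold on both groups. No test result is given for its own genes, although they count among all features tested. Over gene bodies Icam1 had a mean of 152 CPM in the resting cells and 69.7 in the injured cells. Col17a1 had 48.8 and 74.9, and Cav1 37.6 and 61.7. The groups overlapped for the other genes of the basal set. The 2 groups thus passed the basal threshold partly through different genes. The part of this in the differences below was not tested. P-values measure the spread between these 3 libraries a group.

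Of 10 promoters of the antigen presentation and interferon list that could be tested, 5 were higher and 0 lower (edgeR, adjusted p under 0.05), with a median difference of 0.63 against 0.01 over all promoters tested. Over all 13962 promoters, 491 (3.52%) were higher and 790 (5.66%) lower in the resting cells, or 9.17% either way. That background turns with the scaling: 5198 were higher and 497 lower under total cut sites, and 5424 and 490 under 10 kb bins, so counts in each direction are relative to the median promoter. This list was drawn up with earlier results of these data known, and the genes overlap those that set the members apart above, so the count is no independent support.

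Irgm1 showed the largest difference of the list. Its promoter, the 1000 bp either side of its start at chr11:48870683-48872683 (GRCm38, minus strand), had 56.1, 52.2 and 39.2 CPM in the resting cells and 16.7, 24.6 and 13.7 in the injured cells. The groups did not overlap, and the log2 difference was 1.42 (SE 0.16, edgeR adjusted p = 3.23e-10). Irf1, a transcription factor that carries the interferon response, had 51.3, 43.0 and 39.5 CPM against 24.0, 23.3 and 20.6, again without overlap (log2 difference 0.96, SE 0.14, edgeR adjusted p = 8.68e-07). Cd74 had 36.0, 23.7 and 21.8 CPM against 15.7, 13.4 and 9.92 (log2 difference 1.01, SE 0.19, edgeR adjusted p = 0.000129). Irf7, a regulator of type I interferon genes, differed by 0.64 (SE 0.18, edgeR adjusted p = 0.011). The class II genes H2-Aa, H2-Ab1 and H2-Eb1 had promoter differences of 0.62, 0.95 and 0.53 that missed the threshold, although their groups did not overlap. Groups that do not overlap were common, at 27% of all promoters tested and 95.7% of those called.

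Gene bodies with 2000 bp upstream were read in a second fit, in which 8.74% of 17286 were higher and 12.4% lower at rest, 21.2% either way. Groups did not overlap in 38.1% of them, and in 96.8% of those called. H2-Ab1 had 58.6, 45.3 and 44.3 CPM in the resting cells against 25.3, 19.7 and 24.5 (log2 difference 1.09, SE 0.16, edgeR adjusted p = 6.62e-05). H2-Eb1 passed as well, with a difference of 0.45 (edgeR adjusted p = 0.041). Ciita, the master regulator of class II genes, did not (0.23, edgeR adjusted p = 0.343). The immune marker sum, on the plain CPM scale, was 30.5, 21.6 and 26.5 in the resting cells and 34.0, 32.9 and 30.1 in the injured cells. Its part in these differences was not tested. None of the 7 immune promoters had enough cut sites to be tested. With the airway-like criterion dropped, Irgm1 kept its size but not its call (log2 difference 1.28, edgeR adjusted p = 0.060). Cd74 missed the threshold in that setting (0.73, edgeR adjusted p = 0.116) and with each cell thinned to 10000 cut sites (0.68, edgeR adjusted p = 0.230). Irf7 missed it in both settings (0.46 and 0.64, edgeR adjusted p = 0.0673 and 0.202) and when uninjured replicate 1 or injured replicate 2 was left out (edgeR adjusted p = 0.0758 and 0.0617). A stricter cell rule asked for a basal rate of at least 1.5 times and an airway-like rate under 0.5 times the pooled mean. Under it Irf1, Cd74 and Irf7 were not called (0.76, 0.51 and 0.75, edgeR adjusted p = 0.419, 0.784 and 0.622).

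**Figure D3:**
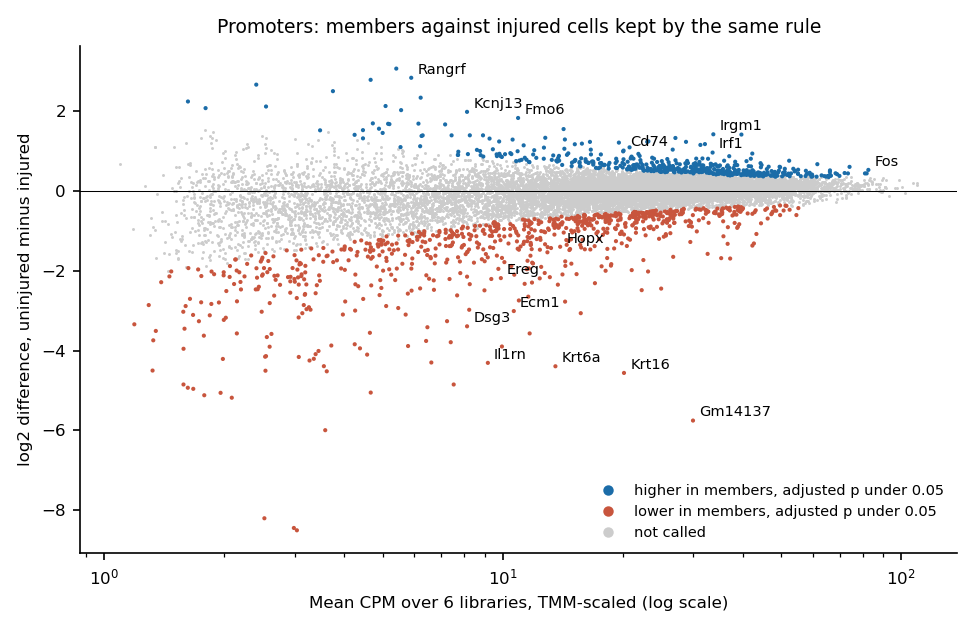
Each point is 1 promoter, with its mean TMM-scaled CPM over the 6 libraries (log axis) and the log2 difference between the members and the injured cells kept by the same rule. Promoters called lower in members reach differences such as -4.56 (Krt16), while those called higher are mostly small, with Irgm1 at 1.42.

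Genes of stressed and stratified epithelium were less open in the resting cells. Of 10 tested promoters of that list, 9 were lower and 0 higher in the resting cells, beside 5.66% and 3.52% of all promoters. All gene lists were drawn up with earlier results of these data known. Neither this count nor those of the lists below is therefore independent support. The median difference was -2.13, against 0.01 over all promoters. Krt16 and Krt6a encode keratins of wounded and thickened epidermis. The Krt16 promoter (chr11:100247902-100249902, minus strand) had 0.74, 1.82 and 2.35 CPM in the resting cells and 49.2, 29.85 and 36.9 in the injured cells (log2 difference -4.56, SE 0.26, edgeR adjusted p = 1.42e-21). Those resting values rested on 4, 22 and 10 cut sites. Krt6a (chr15:101693307-101695307, minus strand) had 1.103, 0.58 and 2.82 CPM against 26.9, 24.7 and 25.2 (log2 difference -4.39, SE 0.31, edgeR adjusted p = 6.37e-17). The highest resting library lay far below the lowest injured library for both genes. Ecm1, an extracellular matrix protein of skin, differed by -3.01 (SE 0.29), Sprr1a, a cornified envelope precursor, by -1.19 (SE 0.18), and Hopx, a homeodomain protein of stem and differentiating epithelia, by -1.40 (SE 0.23), all past the threshold in edgeR.

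Not all genes of the list were closed at rest. Sprr1a had 11.03, 12.9 and 13.9 CPM and Emp1, an epithelial membrane protein, 15.6, 28.8 and 15.97 CPM in the resting cells. Krt17, another stress keratin, was the list's tested promoter without a call: it was open in both groups, at 82.4, 64.5 and 66.0 CPM against 74.7, 51.2 and 57.2 (log2 difference 0.20, edgeR adjusted p = 0.371). Sbsn, Krtdap and Dmkn, neighbours that encode secreted proteins of upper epidermal layers, were called at low counts, with resting means of 0.65, 2.48 and 0.37 CPM. The Krtdap call did not hold when uninjured replicate 1, or either of injured replicates 1 and 3, was left out (edgeR adjusted p = 0.115, 0.0768 and 0.0533). That of Dmkn did not hold when replicate 3 of the uninjured or of the injured group was left out (edgeR adjusted p = 0.0558 and 0.0502), nor in DESeq2 (adjusted p = 0.0747). Dmkn had a value in only 10 alternatives, against 19 for Krt16, and its call held in 7 of the 10. With doublets left out, and over its gene body, Krtdap was not called (-1.09 and -0.84, edgeR adjusted p = 0.185 and 0.146). Emp1 was not called with the airway-like criterion dropped or with each cell thinned (edgeR adjusted p = 0.0545 and 0.0956). Krt6a missed the threshold when the airway-like criterion was dropped (log2 difference -3.16, edgeR adjusted p = 0.0678).

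Genes of the AP-1 family, transcription factors that cells switch on within minutes of stimulation, were open in the resting cells. Of 9 tested promoters, 3 were higher and 0 lower in the resting cells, beside 3.52% and 5.66% of all promoters. This list too was drawn up with earlier results known, so the count is no independent support. Fos had 120.4, 81.8 and 91.4 CPM against 67.8, 66.1 and 68.7 (log2 difference 0.53, SE 0.13, edgeR adjusted p = 0.0025). Fosb differed by 0.47 (edgeR adjusted p = 0.016) and Junb by 0.41 (edgeR adjusted p = 0.029). For all 3 the groups did not overlap. Jun had a difference of 0.29 and Fosl1, a Fos relative active in wounds, of -0.22, neither past the threshold, and the Fosl1 value turned to 0.11 and 0.09 under scaling by 10 kb bins and by total cut sites. Jun was called higher at rest under both scalings (0.62 and 0.60) and with the replicate number as a block (0.29, edgeR adjusted p = 0.0185). Fosb and Junb lay nearer the threshold than Fos. With uninjured replicate 1 left out, Fos, Fosb and Junb all missed it (edgeR adjusted p = 0.0674, 0.073 and 0.263). Fosb also missed it when replicate 2 of either group was left out (edgeR adjusted p = 0.078 for uninjured and 0.0553 for injured). Junb also missed it for injured replicates 1 and 2 (edgeR adjusted p = 0.0526 and 0.217) and in DESeq2 (adjusted p = 0.0531). It was not called with doublets left out (0.32, edgeR adjusted p = 0.173), with the airway-like criterion dropped or in a 500 bp window (edgeR adjusted p = 0.0583 and 0.0708), and its difference was 0.045 under the stricter cell rule. With each cell thinned, Fos and Fosb had edgeR adjusted p-values of 0.126 and 0.164. Over gene bodies 6 of 11 genes were higher at rest and 0 lower, beside 8.74% and 12.4% of all gene bodies, with Junb and Batf among the former (0.78 and 1.01), while Fosb was not called there (0.21, edgeR adjusted p = 0.383).

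**Figure D4:**
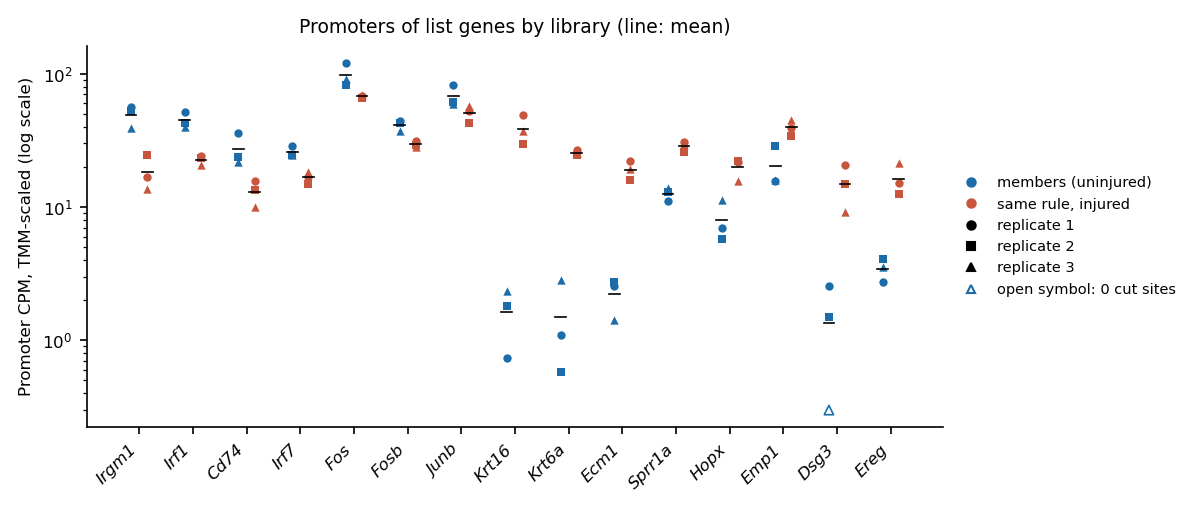
Each point is 1 library's TMM-scaled promoter CPM on a log axis for list genes called in the comparison, with resting cells in blue, injured cells in red, a black line at each group mean and open symbols for 0 cut sites. Interferon and AP-1 genes lie higher in resting cells, and Krt16, Krt6a, Ecm1, Dsg3 and Ereg lie near the floor in resting cells and above 9 CPM in injured cells.

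Desmosomes join epithelial cells to each other, and 3 of 13 tested promoters of that list were lower in the resting cells and 0 higher, beside 5.66% and 3.52% of all promoters. Dsg3, the desmosomal cadherin of basal epidermis, had 2.57, 1.485 and 0 CPM at rest and 20.7, 14.8 and 9.16 after injury (log2 difference -3.39, SE 0.39, edgeR adjusted p = 3.62e-09). Dsg2 and Dsc2, 2 other desmosomal cadherins, differed by -0.64 and -0.58. Under scaling by total cut sites they fell to -0.32 and -0.26 and were not called (edgeR adjusted p = 0.140 and 0.197). Neither was called with uninjured replicate 3 left out (edgeR adjusted p = 0.0616 and 0.0691). Dsc2 was also not called with the airway-like criterion dropped or with each cell thinned (edgeR adjusted p = 0.0663 and 0.249). Leaving out injured replicate 2 ended the call of Dsg2 (edgeR adjusted p = 0.0864), and leaving out injured replicate 1 that of Dsc2 (edgeR adjusted p = 0.0944). Of 10 hemidesmosome and laminin promoters 1 was called, a share near the 9.17% of all promoters called either way. It was Lama5, a laminin chain, higher at rest (log2 difference 0.51, edgeR adjusted p = 0.0082). Over its gene body Lama5 gave -0.11 (edgeR adjusted p = 0.547), and the promoter gave 0.43 when uninjured replicate 1 was left out (edgeR adjusted p = 0.0779). Over gene bodies 2 of 11 hemidesmosome and laminin genes were higher at rest and 1 lower. Of 13 desmosome and junction gene bodies 0 were higher and 4 lower. These counts stand beside 8.74% higher and 12.4% lower of all gene bodies.

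Of 19 tested promoters of basal and epithelial transcription factors, 1 was lower at rest and 0 higher, a share of 5.26% beside the 9.17% of all promoters called either way. Over gene bodies 3 of 20 were lower and 0 higher, beside 12.4% and 8.74% of all gene bodies. The 1 called promoter was that of Ehf, an ETS factor of differentiating epithelia, with 13.2, 11.4 and 8.45 CPM against 20.5, 28.9 and 20.6 (log2 difference -1.06, SE 0.20, edgeR adjusted p = 0.000141). With each cell thinned it was -0.94 (edgeR adjusted p = 0.060). The 5′-most start of Trp63 had too few cut sites to be tested. Over the gene body Trp63 had 161, 176 and 188 CPM at rest and 161, 168 and 192 after injury, which overlapped (log2 difference 0.01, SE 0.11, edgeR adjusted p = 0.957). Sox2, a factor of neural and olfactory stem cells, had a promoter difference of -0.17 and Klf5, a factor of epithelial renewal, of 0.09, neither past the threshold and both with a sign that other settings turned. Klf5 was called higher at rest under scaling by 10 kb bins and by total cut sites (0.42 and 0.41).

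Of 11 EGF receptor family promoters 1 was called, a share of 9.09% that lies near the 9.17% of all promoters called either way. It was Ereg, which encodes the ligand epiregulin, lower at rest with 2.76, 4.04 and 3.52 CPM against 15.2, 12.5 and 21.4 (log2 difference -2.18, SE 0.29, edgeR adjusted p = 6.77e-08). Over gene bodies 7 of 11 genes of that list were lower at rest and 1 higher, beside 12.4% and 8.74% of all gene bodies, with Ereg at -2.43 and Errfi1, an inhibitor of the receptor, at 0.66. None of 11 Notch pathway promoters was called, beside 9.17% of all promoters. Hes1, a Notch target, had a difference of 0.17, which was called at 0.50 and 0.49 under scaling by 10 kb bins and by total cut sites. Over gene bodies 4 of 13 Notch pathway genes were higher at rest and 2 lower, beside the same shares of all gene bodies, and the receptors went both ways. Notch1 was higher at rest, at 260, 259 and 191 CPM against 144, 163 and 134 (log2 difference 0.69, SE 0.12, edgeR adjusted p = 0.000546). Notch2 was lower, at 175, 164 and 180 CPM against 294, 266 and 259 (log2 difference -0.66, SE 0.10, edgeR adjusted p = 0.000127), and so was Notch3 (-0.51, edgeR adjusted p = 0.00916). Of 16 cell cycle promoters 1 was called, a share of 6.25% that lies below the 9.17% of all promoters called either way. It was Ccnd1, which encodes cyclin D1, with 6.25, 8.50 and 5.40 CPM at rest against 13.1, 9.90 and 13.7 (log2 difference -0.81, edgeR adjusted p = 0.044). Over its gene body Ccnd1 gave 0.13, and its promoter call ended when any of uninjured replicates 1 and 3 and injured replicates 1 and 3 was left out (edgeR adjusted p = 0.130, 0.116, 0.173 and 0.123). The call held in 6 of 18 alternatives. Under total cut sites and with each cell thinned the difference fell to -0.49 and -0.40 (edgeR adjusted p = 0.145 and 0.735). Myc had a promoter difference of 0.28 (edgeR adjusted p = 0.175), and was called higher at rest over its gene body (0.43, edgeR adjusted p = 0.0164) and under scaling by 10 kb bins and by total cut sites (0.61 and 0.60).

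Smad3, a transducer of TGF-beta signals, pointed in opposite ways at its start and along its body. Its promoter had 50.6, 39.2 and 47.0 CPM at rest against 32.0, 27.5 and 31.3 (log2 difference 0.57, SE 0.13, edgeR adjusted p = 0.0023), the only call among 16 promoters of the TGF-beta and Wnt list (6.25%, beside 9.17% of all promoters). With each cell thinned, or with the airway-like criterion dropped, the promoter was not called (0.47 and 0.31, edgeR adjusted p = 0.227 and 0.0895). Its gene body had 162, 172 and 160 CPM at rest against 311, 302 and 300 after injury (log2 difference -0.89, SE 0.10, edgeR adjusted p = 3.62e-06). Over gene bodies 4 of 16 genes of that list were higher at rest and 1 lower, beside 8.74% and 12.4% of all gene bodies. Of the 1281 called promoters, 14 were called the other way over their gene bodies.

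Markers of other cell types also differed between the groups, and their counts stand beside the 9.17% of all promoters called either way. Of 3 testable sustentacular promoters 2 were higher at rest, Cbr2, a carbonyl reductase, at 59.2, 49.7 and 58.0 CPM against 30.7, 23.3 and 32.8, and Ermn, a cytoskeletal protein, at 14.7, 15.7 and 15.97 against 5.73, 8.46 and 7.12. The summed level of the 7 sustentacular gene windows was 155 to 175 CPM at rest and 99.3 to 111 after injury, on the plain scale. Their part in the other differences was not tested. Of 5 immature neuron promoters 2 were lower at rest, Ebf1 (log2 difference -1.27) and Tubb3 (-1.11), the latter no longer called when any of uninjured replicates 1 and 3 and injured replicates 1 and 2 was left out (edgeR adjusted p = 0.0592, 0.0866, 0.116 and 0.0885). Hes6 was the 1 call among 6 globose basal promoters (0.39), and leaving out any of the same 4 libraries ended its call (edgeR adjusted p = 0.160, 0.124, 0.154 and 0.121). With the airway-like criterion dropped Hes6 fell to 0.22 (edgeR adjusted p = 0.189). The Hes6 call held in 10 of 19 alternatives, and that of Tubb3 in 8 of 18. Of the mature neuron, Bowman gland, microvillar, ciliated, endothelial and stromal, and glial lists, no tested promoter was called. Over all gene bodies 12.4% were lower and 8.74% higher at rest. Several marker genes were lower there: Ano1 of the Bowman gland list (log2 difference -1.46, edgeR adjusted p = 6.25e-06), Cdh5 and Col1a2 of the endothelial and stromal list (-1.89 and -1.67), Mcidas of the ciliated list (-1.15), Cftr of the microvillar list (-0.72) and Csf1r of the immune list (-1.22). Aqp5 of the Bowman gland list (0.52) and Stoml3 of the mature neuron list (1.04) were higher. Lower calls numbered 1 of 4 tested for Bowman gland, 2 of 6 for endothelial and stromal and 1 of 6 for ciliated. They numbered 1 of 5 for microvillar, 1 of 4 for immune and 2 of 7 for immature neuron. Higher calls numbered 2 of 6 for sustentacular, 1 of 4 for Bowman gland, 1 of 7 for mature neuron and 1 of 7 for globose basal. No theme is read from counts this small. The Bowman gland sum was 136 to 161 CPM at rest and 171 to 183 after injury on the plain scale, and the microvillar sum 129 to 143 and 158 to 167. The immature neuron sum was 129 to 156 at rest and 173 to 186 after injury, while the globose basal sum was higher at rest, at 179 to 207 against 141 to 165. The groups did not overlap in any of these 4 sums or in the sustentacular sum. They overlapped in the mature neuron, ciliated, immune, endothelial and stromal, and glial sums. Among single gene bodies tested, 38.1% did not overlap, on the TMM scale. The part of these lists in the other differences was not tested.

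The promoters with the largest differences outside the rule were named by size among 1030 that were called, did not overlap and had a mean of at least 5 CPM. Those with the largest differences below the injured cells included Gm14137, Themis3, Krt16, Krt6a, Il1rn, Kcnn4, Sdcbp2, Tinag and Odaph. Gm14137 went from 0.37, 1.32 and 1.41 CPM at rest to 72.1, 56.5 and 48.3 after injury (log2 difference -5.75, SE 0.24, edgeR adjusted p = 3.83e-28). Il1rn, which encodes the interleukin 1 receptor antagonist, had 0.74, 0.91 and 0.94 CPM at rest against 17.6, 18.04 and 16.8. Each of those named had at most 2.82 CPM in any resting library.

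The 10 with the largest differences above the injured cells were Gm17334, Rangrf, Nrl, Rfc2, Ces1b, Kcnj13, Fmo6, Cdh26, Cyp2w1 and Tmem219, with differences of 1.68 to 3.07. Over their gene bodies Cdh26 and Tmem219 fell to 0.39 and 0.49 and were not called (edgeR adjusted p = 0.0705 and 0.0578). Nrl, Kcnj13, Fmo6 and Cyp2w1 were not called under the stricter cell rule. The promoter window of Gm17334 (chr11:53772187-53774187) lies near that of Irf1 (chr11:53769014-53771014). It had 9.75, 6.60 and 12.4 CPM at rest against 0.59, 1.76 and 1.27 (log2 difference 3.07, SE 0.45, edgeR adjusted p = 7.34e-07). Whether this difference is separate from that of Irf1 was not tested. Fmo6, of the flavin monooxygenase family, had 24.1, 12.05 and 15.97 CPM against 6.32, 4.31 and 2.80, and Kcnj13, an inward rectifier potassium channel, 12.7, 9.90 and 15.97 against 2.36, 3.03 and 4.83. None of the 10 was as open at rest as Irgm1. Cyp2w1 shares its window with a start of Cox19, so the cut sites cannot be assigned to either gene.

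Open regions were tested in the same way. Of 64276 regions tested, 8892 (13.8%) were higher and 13805 (21.5%) lower in the resting cells, 35.3% in all. The groups did not overlap in 46.9% of the tested regions and in 95.9% of those called. The 2 directions differed in where they lay: regions within 1000 bp of a gene start made up 29.1% of those higher at rest and 4.45% of those lower, against 19.8% of all tested. Intronic and intergenic regions made up 24.4% and 32.4% of those higher and 37.7% and 45.0% of those lower. The share of open-region cut sites that lay at starts was 48.2%, 48.2% and 48.9% at rest and 40.8%, 42.6% and 41.5% after injury, with no overlap (exact two-sided permutation p = 0.1, the smallest that 3 against 3 libraries allow).

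The 2 directions also differed in the AP-1 motif. The 200 bp with the most cut sites are given for the 4 regions with the largest differences below the injured cells, and for 2 of the 4 with the largest differences above them. Motif shares were counted in another window, the 500 bp tile with the highest signal of each region, and the 2 windows can differ. The region near Olig2 holds the motif in its 200 bp and not in its tile, the region near Pi15 holds it in its tile and not in its 200 bp, those of Adamts16 and Frmd4b hold it in both, and those of Tspan5 and chromosome X in neither. Sequences are from GRCm38, 5′ to 3′, and capitals mark the AP-1 motif TGANTCA on either strand.
Nearest start Olig2 (chr16:91234926-91235125, plus strand): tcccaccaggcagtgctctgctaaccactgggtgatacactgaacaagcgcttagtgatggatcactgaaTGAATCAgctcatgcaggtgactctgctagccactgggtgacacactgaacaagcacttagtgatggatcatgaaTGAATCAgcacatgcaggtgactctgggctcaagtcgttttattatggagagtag
Adamts16 intron (chr13:70744503-70744702, plus strand): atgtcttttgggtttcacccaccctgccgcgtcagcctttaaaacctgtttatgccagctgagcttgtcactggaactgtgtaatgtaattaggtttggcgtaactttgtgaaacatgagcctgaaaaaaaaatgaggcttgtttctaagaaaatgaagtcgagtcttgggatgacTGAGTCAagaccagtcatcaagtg
Frmd4b intron (chr6:97447056-97447255, plus strand): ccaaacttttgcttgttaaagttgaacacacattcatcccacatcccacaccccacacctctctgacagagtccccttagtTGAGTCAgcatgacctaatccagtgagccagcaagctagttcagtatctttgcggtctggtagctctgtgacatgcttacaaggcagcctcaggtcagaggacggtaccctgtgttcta
Nearest start Pi15 (chr1:17489316-17489515, plus strand): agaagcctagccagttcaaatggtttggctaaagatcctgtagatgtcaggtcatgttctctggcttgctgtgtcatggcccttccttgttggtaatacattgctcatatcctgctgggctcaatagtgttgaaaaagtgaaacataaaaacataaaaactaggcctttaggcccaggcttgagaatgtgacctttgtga
Tspan5 intron (chr3:138874706-138874905, plus strand): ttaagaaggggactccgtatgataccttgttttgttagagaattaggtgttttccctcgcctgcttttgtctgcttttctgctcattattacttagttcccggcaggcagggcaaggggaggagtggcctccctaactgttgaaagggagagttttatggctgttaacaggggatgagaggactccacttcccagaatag
Chromosome X intergenic (chrX:12996767-12996966, plus strand): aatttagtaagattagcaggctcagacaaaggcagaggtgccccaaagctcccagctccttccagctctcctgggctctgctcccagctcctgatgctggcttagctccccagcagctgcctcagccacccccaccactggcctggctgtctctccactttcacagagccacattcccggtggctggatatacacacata

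The first 4 regions were almost without cut sites at rest. The intergenic region chr16:91234001-91235500, whose nearest start is that of Olig2, had 2, 0 and 0 cut sites in the resting libraries and 23.2, 20.8 and 18.1 CPM after injury (log2 difference -7.46, SE 0.55, edgeR adjusted p = 1.82e-09). The intronic region of Adamts16 (chr13:70744001-70745500) had 0, 3 and 0 cut sites at rest and 24.8, 21.2 and 18.1 CPM after injury, and that of Frmd4b (chr6:97446501-97447500) 0, 6 and 2 cut sites and 39.6, 28.8 and 27.4 CPM. A fitted difference at such counts depends on the prior count. The region chr1:17488501-17490500 was as closed at rest, with 0, 6 and 0 cut sites, with 28.7, 21.1 and 15.5 CPM after injury. The regions with the largest differences above the injured cells were the intron of Tspan5 (chr3:138874001-138875500), with 18.8, 19.9 and 16.1 CPM against 1.74, 0.91 and 3.01 (log2 difference 3.36, SE 0.36, edgeR adjusted p = 1.5e-07), an exon of Cacna1g, an intergenic region of chromosome X and an exon of Nrcam.

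The AP-1 motif was present, in the 500 bp tile with the highest signal, in 28.7% of all tested regions, in 10.9% of those higher at rest and in 63.7% of those lower. Among the 42013 intronic and intergenic regions alone the shares were 35.2%, 12.6% and 65.8%, and the median difference was -1.11 with the motif and 0.17 without it. Regions with the motif held 18.1% ± 0.86 (SD, n = 3) of open-region cut sites at rest and 27.5% ± 1.09 after injury (exact two-sided permutation p = 0.1). Every motif counted other than FOX, NF-kB, OTX and IRF gave the same p, so it does not single out AP-1. Among them were TEAD (23.1% and 24.4%) and RUNX (24.9% and 27.6%). The other motifs named here differed by fewer percentage points. In intronic and intergenic regions the OTX motif GGATTA was in 30.4% of regions higher at rest, 20.7% of those lower and 22.7% of all, and the STAT motif TTCCNGGAA in 3.798%, 1.82% and 2.16%. The IRF motif was in 8.31%, 6.39% and 7.24%, and the CTCF motif in 3.70%, 1.83% and 6.16%. Over all tested regions the OTX motif was in 22.95% of those higher, 20.3% of those lower and 19.4% of all. The share of open-region cut sites in OTX regions did not separate the groups. Its mean was 14.9% at rest and 15.3% after injury, with overlap between libraries (exact two-sided permutation p = 0.2). A match is a description of letters, and related factors share a motif.

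**Figure D5:**
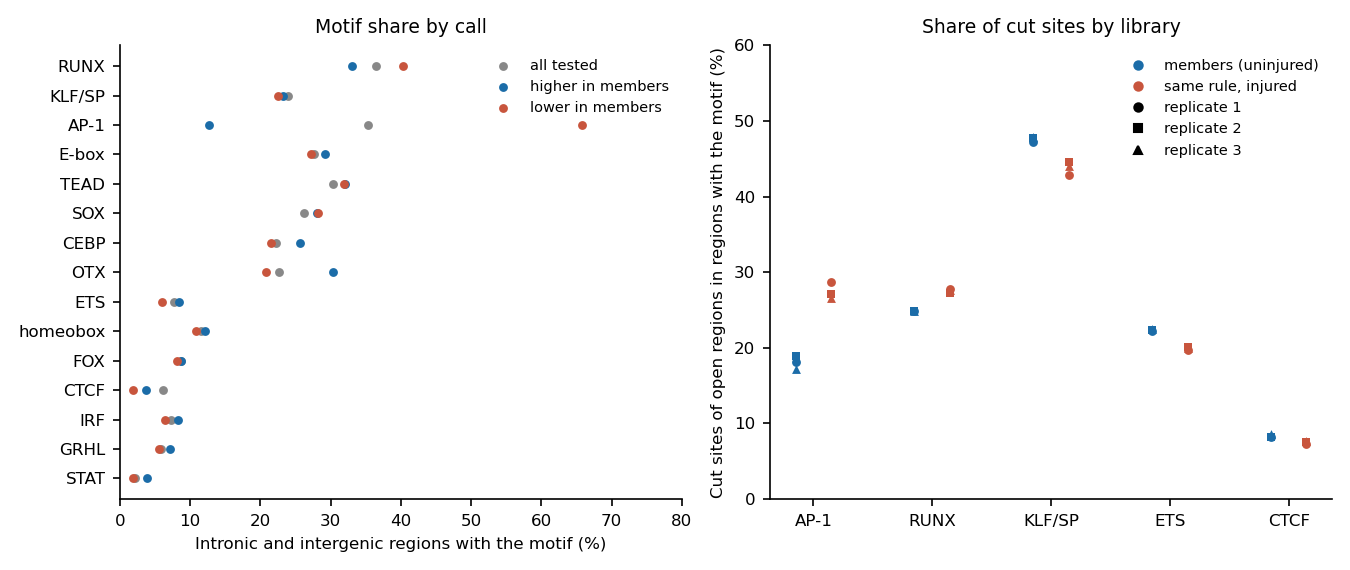
Left, the percentage of intronic and intergenic open regions that hold each motif, for all tested regions (grey) and those higher (blue) or lower (red) in members. Right, the percentage of open-region cut sites in regions with a motif, 1 point per library; the AP-1 motif stands at 12.6% and 65.8% on the left.

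The 4 regions most open in members against other uninjured cells add a description of the resting state itself, on the plain CPM scale. They were an intergenic region (chr11:6731001-6733500) with 17.2, 13.9 and 14.8 CPM in members against 6.42, 5.36 and 4.21, an exon of Col16a1, the start of Sult5a1, and an intron of Car12. They were ranked among regions with at least 10 CPM in the members of every library, a minimum set in the members alone. The same member cut sites enter the comparison with injured cells, so its values for these regions are a description and no support. On the TMM scale the first 3 had log2 differences of 1.97, 2.91 and 1.72. The Car12 region was not called, with 24.2, 23.3 and 15.6 CPM at rest and 21.4, 26.2 and 18.1 after injury (log2 difference -0.05, edgeR adjusted p = 0.885).

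Variation among the members was described by clustering, with no test and no names given. It gave 5 groups of 207, 45, 87, 86 and 14 cells, each with cells of at least 2 libraries, and 2 or 9 groups at other resolutions. In groups 1, 3 and 4 each of the 10 leading genes drew at least 41.3% of its cut sites in the group from 1 cell. Examples are Dnah5 (83.4%), Gpr141 (98.8%) and Tfec (96.0%). Group 2, with 9, 16 and 20 cells of replicates 1 to 3, was led in part by genes spread over its cells, among them Prss30 (21 cells, 11.4% from 1 cell), Arhgef38 (27 cells, 14.97%) and Anxa1 (19 cells, 20.9%). It had the lowest median basal rate (0.0426%) and the highest median airway-like rate (0.0136%). The antigen presentation and interferon list summed to 459, 359, 443, 535 and 744 CPM in groups 1 to 5, so it was not carried by one group.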

How the data were processed

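Each deposited fragment file holds 1 line per fragment, with its barcode and a count of its read pairs, per the file contents, and the authors used Cell Ranger 2.0.0 and mm10, per the submitters' processing notes. Which aligner was used is not given in the sources used here. All fragments lay within the chromosomes of GRCm38, whose sequence and GENCODE annotation were used. The libraries held 8100227 to 23937953 fragments. The deposited count matrices were not used.

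Both fragment ends were counted as cut sites. Tiles of 500 bp with at least 5 times the median tile's signal over the 6 libraries were merged into 170859 open regions. Cut sites of the kept cells were summed per library and compared with edgeR 4.0.16 (robust quasi-likelihood test after TMM scaling and filterByExpr, in R 4.3.3), and p-values were adjusted by Benjamini-Hochberg over all features tested, with a threshold of 0.05. A standard error is the log2 difference divided by the square root of F. DESeq2 1.42.0 was an alternative. Single values per library were compared by exact permutation tests. Clusters came from TF-IDF, 20 SVD components less 2 that followed depth, 15 neighbours and Leiden resolution 0.5 (scanpy 1.11.5).

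Promoters were named as the 10 largest differences each way among those called, without overlap and with a mean of at least 5 CPM. Regions were named as the 4 largest each way by the same conditions with at least 10 CPM. Regions on chromosome 18 and within the windows of the cell rule's genes were left out of that naming. Genes most open in members were named by the lowest library ratio. Called list genes were named too. A result for 1 called list gene and 1 promoter that the rule names is not reported here. Uncalled list genes were to be given by values, and those named in the text were picked after their values were seen. The rule gave no CPM scale: TMM-scaled CPM was chosen after names under plain CPM had been seen, which changed some of the promoters named as higher. The motif list, the thinning of each cell, the member counts under the stricter rule and without the airway-like criterion, and the reading of single-cell shares were also chosen after the data were seen. The members and all gene lists were chosen with earlier results of these data known.

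Doublets were cells in which over 2 fragments overlapped more often than is typical of cells of like depth in the same library. They were 17.1%, 21.3% and 6.59% of members and were kept. On simulated data the promoter test recovered 161 of 200 promoters changed by a log2 of 1 and 197 of 200 changed by 2 (80.5% and 98.5% of those over 13962 promoters), with 18 false calls. The region test recovered 49 of 200 and 151 of 200 (24.5% and 75.5%, over 64276 regions), with 7 false calls. The simulation took the TMM factors as true, changed as many features up as down and left all others unchanged. Its false calls therefore do not bear on the choice of scaling.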

Additional observations from a re-analysis of the deposited data

How the results depend on the processing

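Scaling decided the balance of promoter calls. With TMM over promoters 491 were higher and 790 lower at rest (38.3% of calls higher), while scaling by total cut sites gave 5198 and 497 (91.3%) and by 10 kb bins 5424 and 490 (91.7%), which moved the median of all promoters to 0.33 and 0.34. Among regions the share of calls higher was 39.2%, and 24.9% with no filter on low counts. Under the stricter cell rule 15 and 43 promoters and 851 and 2005 regions were called, with 121 members. With each cell thinned to 10000 cut sites, an alternative chosen after the data were seen, 135 and 228 promoters and 2495 and 4125 regions were called. Leaving out doublets gave 5601 regions higher, dropping the airway-like criterion of the rule 304 promoters higher, and gene bodies 1510 higher and 2147 lower. Leaving out each library in turn gave 278 to 456 promoters higher and 525 to 789 lower, and 5733 to 9885 regions higher and 10940 to 16544 lower. Leaving out injured replicate 1 gave 321 and 525 promoters and 5733 regions higher, and uninjured replicate 1 gave 278 promoters higher.

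Of 56 named and list results that were called, 27 kept call and direction under every alternative in which they had a value. With the stricter rule set aside, 35 did. A setting that filtered a feature out was not counted for it. The promoters of Gm17334, Rangrf and Rfc2, for example, had values in 17 alternatives, against 19 for Krt16. The direction of 3 results reversed, all over gene bodies: Lama5 (-0.11), Ccnd1 (0.13) and Smad3 (-0.89). Of the uncalled genes named, Fosl1 turned to 0.11 (10 kb bins), 0.19 (stricter rule) and 0.095 (total cut sites), Hes1 to -0.041 (500 bp window), Sox2 to 0.17 (10 kb bins), 0.31 (thinned cells), 0.057 (gene body) and 0.15 (total cut sites), and Klf5 to -0.42 (stricter rule) and -0.018 (without uninjured replicate 1; 0.20 without uninjured replicate 2). Krt17 (0.53 and 0.52), Jun (0.62 and 0.60), Myc (0.61 and 0.60), Hes1 (0.50 and 0.49) and Klf5 (0.42 and 0.41) were called higher at rest under 10 kb bins and total cut sites. Of 48 called promoters of named and list genes, 21 lost their call under the stricter rule, 12 with cells thinned, 11 without the airway-like criterion, 6 with doublets left out, 5 in DESeq2 and 7 over gene bodies, reversals included. Promoters with no value in a setting are not among these losses. The causes were not tested, other than that stricter and thinned fits hold fewer cells or cut sites. The gene body fit also had its own TMM factors.

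Whether the replicate numbers pair the libraries was not settled, and they were not treated as pairs. The labels name no shared animal, litter or day but give same-numbered libraries the same age, Y-linked cut sites also followed the number, and correlations of same-numbered deviations were 0.109, 0.143 and 0.058 in promoters and 0.076, 0.043 and 0.084 in regions. In promoters each uninjured library correlated best with its own number, and in regions uninjured replicate 2 did not. A replicate block gave 714 and 934 promoters and 8652 and 13530 regions, and Jun was the named promoter whose call it changed. Other fragment minimums, mean rates and doublet removal gave 286 to 559 members, and 895 passed without the airway-like criterion. Resolutions of 0.25 and 1 gave 2 and 9 groups.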

Other observations

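Open regions held a larger share of cut sites at rest: 79.5%, 79.9% and 78.1% in the resting cells against 75.7%, 75.0% and 75.5% in the injured cells kept by the same rule, with no overlap between libraries (exact two-sided permutation test, p = 0.1, which is as low as 3 against 3 can go). Enrichment of cut sites at gene starts was 29.3, 26.7 and 30.8 at rest against 22.9, 19.9 and 22.4 (exact two-sided permutation p = 0.1). The depth of the kept cells overlapped between the 2 groups. Its median was 12787, 11690 and 17278 fragments at rest and 14132, 22420 and 22242 after injury (exact two-sided permutation p = 0.2). The part of depth in these shares was not tested.

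List genes differed between promoter and gene body in both directions, though the 2 fits had separate TMM factors. Fosb had a called promoter (0.47) and no call over its body (0.21, edgeR adjusted p = 0.383), while others had larger values over the body. Junb had 289, 211 and 244 CPM over its body and 2 kb upstream at rest and 153, 116 and 163 after injury (log2 difference 0.78, SE 0.14, edgeR adjusted p = 0.000684). Its promoter value was 0.41, but with separate scaling the 2 sizes cannot be compared directly. Irf1 had 114, 74.6 and 94.9 CPM there against 28.8, 31.4 and 34.4 (log2 difference 1.58, SE 0.15, edgeR adjusted p = 6.48e-07). Gbp2, a guanylate-binding protein, was called over its body (0.83, edgeR adjusted p = 0.015) and not at its promoter (0.41, edgeR adjusted p = 0.332). Of 17286 gene bodies tested, 8.74% were called higher and 12.4% lower at rest.

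The 4 Y-linked genes Ddx3y, Uty, Eif2s3y and Kdm5d, chosen after their values were seen, had 71, 100, 39 and 8 cut sites in the kept cells of uninjured replicate 1, 79, 78, 50 and 18 in uninjured replicate 3, 130, 150, 62 and 36 in injured replicate 1 and 76, 101, 54 and 24 in injured replicate 3. Replicate 2 had 0 of each in the uninjured group and 0, 2, 0 and 0 in the injured group, so the pattern followed the replicate number in both groups. The sex of the mice is not in the labels.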
